A study of Danio rerio with 20 samples.

Results

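The mRNAs of 10 subunits of the CCR4-NOT complex were followed in zebrafish embryos in which the terminal uridylyltransferases TUT4 and TUT7 were knocked down. The genes were taken by symbol (cnot1, cnot2, cnot3a, cnot3b, cnot6a, cnot6b, cnot7, cnot8, cnot10 and cnot11). All 10 were found, each on 1 entry of the 32105 entries with values, and all 10 passed the filter on low counts in every comparison. Whole embryos of the wild-type AB strain were injected as 1-cell embryos with a control morpholino (ConMO) or with translation-blocking morpholinos against TUT4 (TUT4MO), TUT7 (TUT7MO) or both (TUT47MO). A morpholino is an antisense oligomer. Every embryo, controls included, was injected with morpholino, and TUT47MO embryos with both of those against TUT4 and TUT7. The 20 total RNA libraries belong to 3 experiments run independently. Of these, rs1a sampled every morpholino 2, 4 and 6 hours after fertilization (hpf). The others compared ConMO with TUT47MO alone, rs1b at 3 and 6 hpf and rs2 at 3 and 5 hpf. Each combination of set, hour and morpholino is 1 library. The pairs of TUT47MO and ConMO at 2 or 3 hpf are called early (n = 3) and those at 5 or 6 hpf late (n = 3).

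CCR4-NOT is the main cytoplasmic deadenylase of animal cells and shortens the poly(A) tails of mRNAs before their decay. In human cells CNOT1 is the scaffold. CNOT7 and CNOT8 (CAF1 proteins) and CNOT6 and CNOT6L (CCR4 proteins) are the nucleases, CNOT2 and CNOT3 form the NOT module, and CNOT10 and CNOT11 bind the scaffold's N-terminal end. The zebrafish embryo starts with mRNA made by the mother, which is deadenylated and cleared while the embryo switches on its own genome. TUT4 and TUT7 add uridines to RNA 3′ ends, including those of mRNAs with short poly(A) tails.

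Each library holds between 1.19e+07 and 3.28e+07 estimated reads. In 6 rs1a libraries 44.6 to 51.6% of reads fell on 2 very abundant entries with clone names, against 1.17 to 14.4% in the other 14 libraries. These 2 entries were taken here as mitochondrial rRNA. The 6 are every rs1a library at 6 hpf and the TUT7MO and TUT47MO libraries at 4 hpf. At 4 hpf ConMO (14.4%) and TUT4MO (13.5%) are not among them. Levels are given as CPM, reads scaled to the library total with TMM factors set over all 20 libraries, and differences as log2(CPM + 1), which understates the change of low genes. The entry for TUT4, zcchc11, stood at 97.1 to 170 CPM over the 20 libraries and that for TUT7, ZCCHC6, at 134 to 275 CPM. Because the morpholinos block translation, these levels do not check the knockdown. In whole embryos, fewer cells that hold an mRNA and less of it per cell cannot be told apart. Members with close paralogs (cnot3a and cnot3b, cnot6a and cnot6b, cnot7 and cnot8) may share reads that the authors' counting split between them.

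In control embryos the 10 subunit mRNAs went 3 ways between the early and the late libraries. The nuclease mRNAs cnot6b and cnot7 and the mRNA of the N-terminal subunit cnot10 fell. The mRNAs of the scaffold cnot1, of cnot3a and of cnot11 rose. Those of cnot2, cnot3b, cnot6a and cnot8 did not pass the test. The 2 nuclease mRNAs that fell had the lower CPM of their pairs. CPM is not corrected for mRNA length, so levels of different genes do not rank their abundance. In ConMO cnot8 averaged 182 CPM early and 165 CPM late, against 34.5 and 5.33 CPM for cnot7. Means for cnot6a were 339 and 393 CPM, against 144 and 29.8 CPM for cnot6b. The count of 3 that rose and 3 that fell stands beside 35.5% of all 17022 genes tested that rose and 38.1% that fell, 73.5% in all (limma, adjusted p under 0.05). The share of members called, in all and in each direction, is therefore near that of all genes. The split is not read as a trait of the complex, and the courses below describe single subunits. The median log2 change was 0.03 over the 10 members and −0.08 over all genes.

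The largest fall was that of cnot7 (ENSDARG00000032116), a CAF1 deadenylase gene. Early ConMO libraries held 34.7 CPM at 2 hpf in rs1a, 40.4 CPM at 3 hpf in rs1b and 28.3 CPM at 3 hpf in rs2. Late ConMO libraries held 4.81 CPM at 6 hpf in rs1a, 3.82 CPM at 6 hpf in rs1b and 7.37 CPM at 5 hpf in rs2. The late level was 16.5 ± 8.60% of the early one (SD, n = 3 sets). The log2 change was −2.51 ± 0.26 (SE, limma adjusted p = 9.13e-05). The lowest of these values rests on 44 reads in rs1b, with a 95% exact Poisson interval of 2.77 to 5.12 CPM that covers counting error only.

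The CCR4-type nuclease gene cnot6b (ENSDARG00000101072) followed the same course. It was at 145, 146 and 141 CPM in the early ConMO libraries of rs1a, rs1b and rs2, and at 31, 24.0 and 34.4 CPM in the late ones. Late levels were 20.7 ± 3.96% of early ones (SD, n = 3), a log2 change of −2.25 ± 0.15 (SE, limma adjusted p = 1.16e-05). In rs1a, the only set sampled at 4 hpf, cnot6b was still at 140.3 CPM and cnot7 at 36.5 CPM at that hour. Both mRNAs therefore dropped between the 4 and 6 hpf libraries of that set. The cnot10 mRNA (ENSDARG00000058528) went from 88.6, 69.4 and 123 CPM to 36.3, 34.6 and 64.9 CPM. It lost less, with late levels at 47.8 ± 6.10% of early ones (SD, n = 3; log2 change −1.05 ± 0.13, SE, limma adjusted p = 0.000258).

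Of the members that rose in controls, cnot3a (ENSDARG00000007135) encodes a NOT-module subunit. It stood at 49.2, 38.4 and 55.7 CPM in early ConMO libraries of rs1a, rs1b and rs2 and at 118, 83.6 and 116 CPM in the late ones. Late levels were 222 ± 15.6% of early ones (SD, n = 3; log2 change 1.13 ± 0.12, SE, limma adjusted p = 0.000121). In rs1a its level at 4 hpf, 49.7 CPM, was that of 2 hpf. The scaffold mRNA cnot1 went from 68.6, 49.96 and 85.1 CPM to 212, 124 and 262 CPM (1.51 ± 0.13, SE, limma adjusted p = 3.35e-05), and was already at 99.0 CPM at 4 hpf. The cnot11 mRNA went from 13.3, 14.6 and 17.1 CPM to 31, 28.0 and 44.2 CPM (1.13 ± 0.16, SE, limma adjusted p = 0.000512). On the values as deposited, with no rescaling of libraries, 0 members rose and 2 fell (cnot6b and cnot7). Over all 17022 genes 2596 rose and 2046 fell on that scale, in place of 6037 and 6477. It leaves the counts of rs1b uncorrected for depth. The calls of cnot1 (1.24), cnot3a (0.86), cnot10 (−1.31) and cnot11 (0.87) were lost on that scale, with the same signs. Without rs2, cnot6a also rose (0.30, adjusted p = 0.0411) and cnot8 fell (−0.36, adjusted p = 0.0143), and cnot6a passed with median-of-ratios scaling (0.44) and DESeq2 (0.41).

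**Figure D1:**
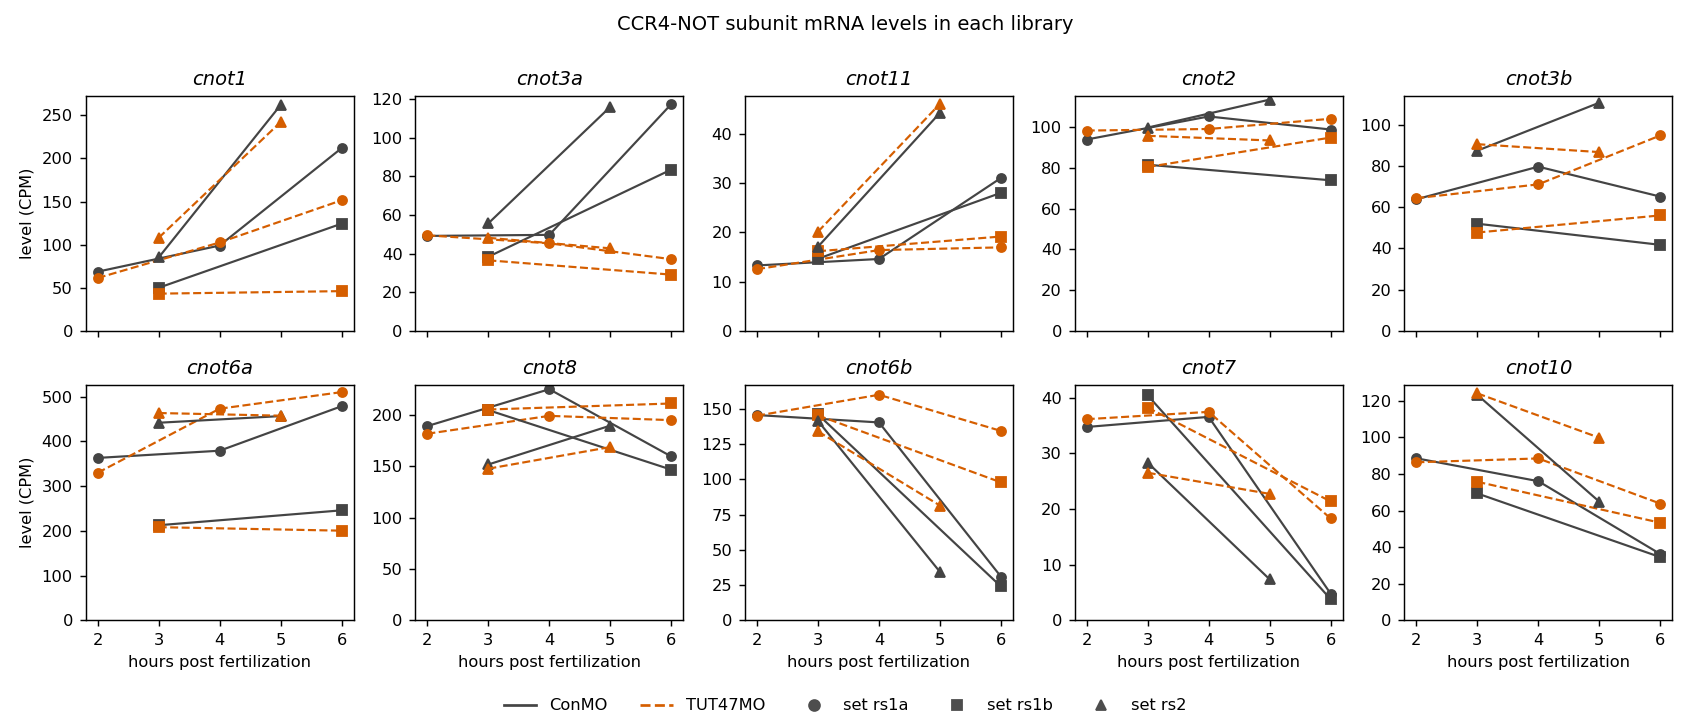
Level of each of the 10 subunit mRNAs (y axis, CPM, from 0) against hours post fertilization (x axis), 1 point per library, with lines joining libraries of a set and morpholino, solid for ConMO and dashed for TUT47MO. The top row starts with the 3 mRNAs that rose in late ConMO libraries, and the last 3 panels are those that fell; in late TUT47MO libraries cnot6b stands at 81.4 to 134 CPM against 24.0 to 34.4 CPM in ConMO.

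The question of the series is how loss of TUT4 and TUT7 bears on the clearance of maternal mRNA, and the CCR4-NOT mRNAs are themselves partly maternal. In late TUT47MO embryos the 3 subunit mRNAs that controls lost stayed higher than in ConMO. The mRNA of cnot3a, which controls gained, was lower, and so was cnot1. The same late ConMO libraries enter both comparisons. An mRNA low there by error would show both a fall in controls and a higher TUT47MO value, so the opposite signs are partly built in. Of the 10 members 3 were called higher and 2 lower, beside 34.5% of 18075 genes called higher and 29.5% called lower (64% either way), so the number of members called is again near the background. The median log2 difference was 0.13 over the members and 0.09 over all genes. One spread was fitted to early and late pairs, and the late ones varied more, so late SEs and p-values may be too small. With the 6 late libraries alone 3 members were called higher and 1 lower, beside 4731 and 4201 of 16877 genes. With the deposited scaling 3 members were called higher and 1 lower, and the median over all genes moved to 0.32, with 6632 genes called higher and 3165 lower in place of 6243 and 5329. That scale leaves depth uncorrected in rs1b, whose late libraries total 1.19e+07 reads in ConMO and 1.48e+07 in TUT47MO.

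Late TUT47MO libraries held 18.3 CPM of cnot7 in rs1a, 21.4 CPM in rs1b and 22.7 CPM in rs2, against 3.82 to 7.37 CPM in late ConMO. The log2 difference from ConMO was 1.73, 2.22 and 1.5 in the 3 pairs, and the fitted one 1.82 ± 0.15 (SE, limma adjusted p = 4.58e-05). For cnot6b the late TUT47MO libraries held 134, 97.8 and 81.4 CPM in rs1a, rs1b and rs2. The pair differences of cnot6b were 2.08, 1.98 and 1.22, with a fitted value of 1.76 ± 0.16 (SE, limma adjusted p = 7.3e-05). The rs2 pair, taken at 5 hpf, showed the smallest difference for both nuclease mRNAs. Among all genes tested, cnot7 lay at the 97.7 percentile and cnot6b at the 97.2 percentile of the late difference. The other called members lay at 76.1 (cnot10), 23.1 (cnot1) and 8.6 (cnot3a).

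The cnot10 mRNA stood at 63.9, 53.4 and 99.9 CPM in late TUT47MO libraries, and each exceeded the ConMO library of its own set, although the ranges of the 2 groups overlap. The pair differences were 0.80, 0.61 and 0.61, with a fitted value of 0.67 ± 0.10 (SE, limma adjusted p = 0.000503). That call was lost in the fit without pairs as a block (adjusted p = 0.105). The reverse held for cnot3a, at 37.1, 29.1 and 42.7 CPM in late TUT47MO libraries against 83.6 to 118 CPM in ConMO. Its pair differences were −1.64, −1.49 and −1.42 (fitted −1.52 ± 0.10, SE, limma adjusted p = 2.33e-05). The calls of cnot3a, cnot6b and cnot7 held in each of the 13 alternatives of scaling, test, filter, pseudocount and libraries.

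For the scaffold cnot1 the late TUT47MO libraries held 151, 46.0 and 242 CPM, against 212, 124 and 262 CPM in ConMO. The pair differences of −0.48, −1.41 and −0.11 spread widely, and the fitted value was −0.67 ± 0.23 (SE, limma adjusted p = 0.035). The call was lost without rs1a (−0.76, adjusted p = 0.139) and without rs1b (−0.30, adjusted p = 0.25), and in 4 other alternatives. The cnot11 mRNA had pair differences of −0.84, −0.53 and 0.06 (fitted −0.44 ± 0.17, SE, limma adjusted p = 0.0547). It passed without rs2 (−0.68, adjusted p = 0.00172) and in 3 other alternatives.

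The 4 remaining members did not pass in late embryos. The fitted differences were 0.05 ± 0.13 for the NOT-module gene cnot2, 0.20 ± 0.17 for cnot3b, −0.07 ± 0.12 for the CCR4-type gene cnot6a and 0.21 ± 0.14 for the CAF1 gene cnot8 (SE, limma adjusted p = 0.205 to 0.741). Signs varied between sets: cnot3b differed by 0.53 in rs1a, 0.42 in rs1b and −0.35 in rs2, and cnot8 by 0.29, 0.52 and −0.17. Without rs2 both passed, at 0.48 for cnot3b (adjusted p = 0.00163) and 0.40 for cnot8 (adjusted p = 0.0034). A value that misses the threshold here does not show that an mRNA was the same in both groups.

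**Figure D2:**
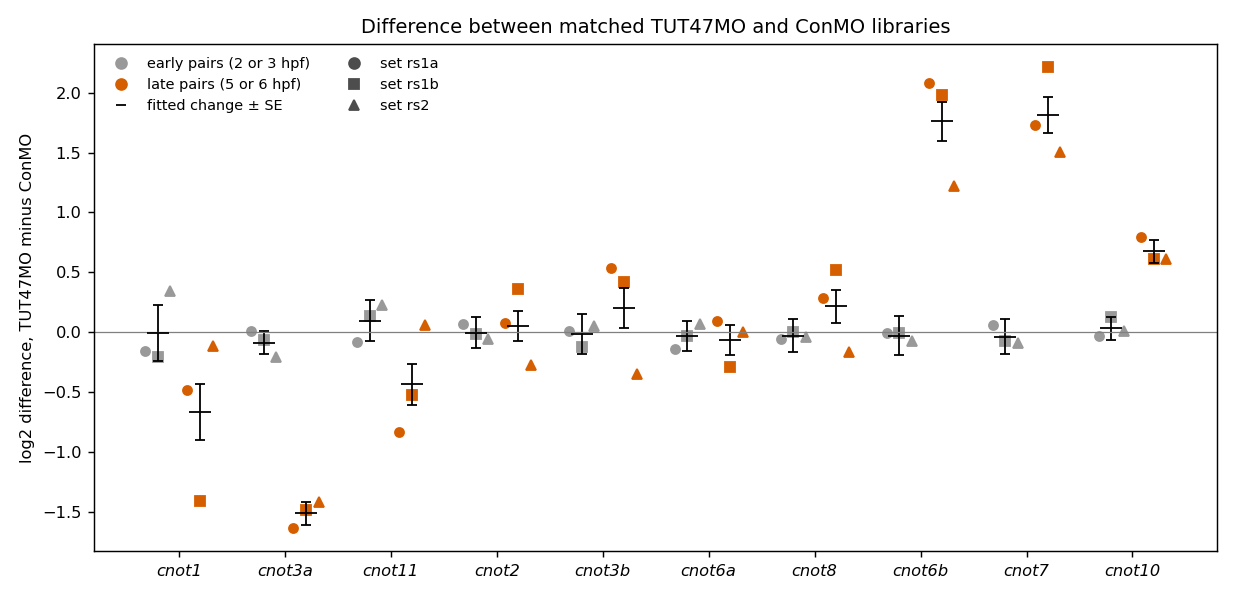
Difference between the TUT47MO and the ConMO library of the same set and hour (y axis, log2(CPM + 1)) for each subunit mRNA (x axis), with early pairs in grey and late pairs in orange, symbols for sets, and the fitted change with its SE in black. Early pairs lie between −0.21 and 0.34, while all 3 late pairs of cnot6b and cnot7 lie above 1.2 and those of cnot3a below −1.4.

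The early embryos showed no such differences. At 2 and 3 hpf the fitted TUT47MO changes ran from −0.09 (cnot3a) to 0.09 (cnot11), and 0 of the 10 members passed, beside 0% of all genes (limma). None of the 10 had an unadjusted limma p under 0.05, against 104 of 18075 genes. Both edgeR and DESeq2 also called 0 members, beside 0 of all genes. The early test shares its spread with the more variable late pairs. With the 6 early libraries alone 0 members were called too. The late effect differed from the early one for cnot3a (−1.43 ± 0.14, SE, limma adjusted p = 0.000358), cnot6b (1.79 ± 0.23, adjusted p = 0.000841), cnot7 (1.85 ± 0.21, adjusted p = 0.000542) and cnot10 (0.64 ± 0.13, adjusted p = 0.00588). These are 3 members higher and 1 lower, beside 26.1% and 23.4% of all genes (49.5% either way). The cnot10 call was lost without rs1a (0.55, adjusted p = 0.110), without rs1b (0.72, adjusted p = 0.0524), on the deposited scaling and without the pair block (adjusted p = 0.329). Without rs2 the difference also passed for cnot1 (−0.76), cnot3b (0.53), cnot8 (0.43) and cnot11 (−0.71). At 4 hpf in rs1a the members differed by −0.18 (cnot8) to 0.32 (cnot6a), with 1 library per group and no test. The TUT47MO library there had 44.6% of its reads on the very abundant entries with clone names, against 14.4% in ConMO.

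Within TUT47MO embryos the courses of cnot7, cnot6b, cnot10 and cnot3a were flatter. Those of cnot2 (log2 change 0.09 against 0.04 in ConMO) and cnot3b (0.24 against 0.02) were not. The changes of cnot1 (0.85 against 1.51) and cnot11 (0.60 against 1.13) were smaller too. Their late minus early differences did not pass in the main fit. Those of cnot6a (0.18 against 0.22) and cnot8 (0.11 against −0.13) were small in both groups. From early to late libraries cnot7 reached 64.1 ± 18.9% and cnot6b 73.6 ± 16.8% of its early level (SD, n = 3 sets), where ConMO kept 16.5% and 20.7%. For cnot10 it was 74.9 ± 5.08% against 47.8%. The 3 log2 changes, −0.66 ± 0.20, −0.46 ± 0.17 and −0.41 ± 0.14 (SE), did not pass (limma adjusted p = 0.0507, 0.0921 and 0.0736). The cnot3a mRNA ended at 75.0, 79.7 and 88.7% of its early level in rs1a, rs1b and rs2, below its start in each set (log2 change −0.30 ± 0.15, SE, limma adjusted p = 0.182). Of the members only cnot1 was called, as higher (0.85 ± 0.25, SE, limma adjusted p = 0.0493), beside 12.4% of 16531 genes called higher and 15.1% called lower (27.5% either way). That call is close to the threshold and was lost in 7 of 12 alternatives, among them without rs1a (0.63, adjusted p = 0.239). Without rs2, cnot7 (−0.88, adjusted p = 0.00102) and cnot10 (−0.46, adjusted p = 0.0163) fell in TUT47MO embryos as well, and cnot3b rose (0.39, adjusted p = 0.048). The courses of ConMO and TUT47MO embryos share no libraries, and their difference is the late minus early effect tested above.

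Ratios of 2 subunits within a library do not depend on how libraries are scaled. In ConMO the cnot7 to cnot8 ratio of the CAF1 pair shifted by −2.61, −2.92 and −2.26 (log2) from the early to the late library of rs1a, rs1b and rs2. In late TUT47MO libraries the shift from early ConMO was −0.97, −0.96 and −0.47, which is 1.80 ± 0.16 above ConMO (SD, n = 3 pairs). The cnot6a to cnot6b ratio of the CCR4 pair shifted by 2.63, 2.81 and 2.09 in ConMO and by 0.61, 0.49 and 0.85 in TUT47MO, a difference of −1.86 ± 0.56. For cnot3a to cnot3b the ConMO shifts were 1.23, 1.44 and 0.72 and the TUT47MO shifts −0.98, −0.51 and −0.37, of opposite sign in all 3 sets (difference −1.75 ± 0.58). The ratio of cnot10 to cnot11, partners in the N-terminal module, differed by 1.14 ± 0.56. For each of the 4 late ratios the two-sided exact sign-flip permutation test gave p = 0.25, the smallest that 3 pairs allow, and 0.25 adjusted over the 4. In the early pairs the mean differences lay between −0.07 and −0.003 (exact permutation p = 0.75 to 1). A ratio shows that 2 mRNAs changed unequally, not which one changed.

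**Figure D3:**
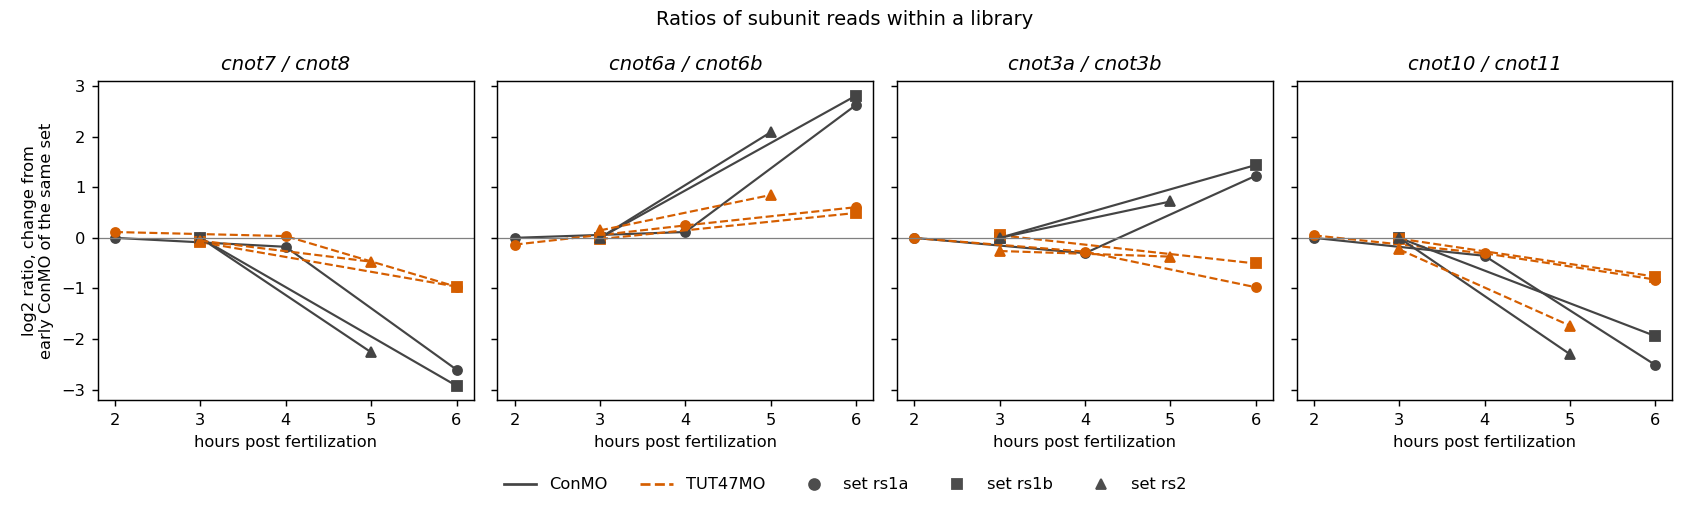
Log2 ratio of the reads of 2 subunits in the same library, as the change from the early ConMO library of the same set (y axis), against hours post fertilization (x axis), with ConMO solid and TUT47MO dashed. Late TUT47MO points lie nearer to 0 than late ConMO points in the cnot7 to cnot8 and cnot6a to cnot6b panels, and on the other side of 0 in the cnot3a to cnot3b panel.

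Single knockdowns were sampled in rs1a alone, with 1 library per hour. Averaged over 2, 4 and 6 hpf, 0 of the 10 members passed for TUT4MO, TUT7MO or TUT47MO against ConMO, or for TUT47MO against either single morpholino, beside 0% of 17051 genes in each (limma). At an unadjusted limma p under 0.05 stood 1 member in TUT4MO (cnot1, −0.30 ± 0.13, SE), beside 1.15% of all genes. In the other 4 comparisons 0 members did. The shares of all genes there were 4.1% for TUT7MO and 11.5% for TUT47MO against ConMO. For TUT47MO they were 4.6% against TUT4MO and 1.04% against TUT7MO. Both edgeR and DESeq2 called 0 members in all 5. Over all genes edgeR called 0 in each, and DESeq2 called 1, 2, 22, 6 and 0 in the same order. The 3 hours do not act as replicates of 1 effect here, since cnot3a, cnot6b and cnot7 differed from ConMO by −0.24 to 0.20 at 2 and 4 hpf and by 0.61 or more in size at 6 hpf, while cnot2 and cnot6a differed by 0.04 to 0.15 at 6 hpf. The values at 6 hpf are therefore given by library, without a test.

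At 6 hpf in rs1a cnot6b stood at 31 CPM in ConMO, 47.9 CPM in TUT4MO, 94.0 CPM in TUT7MO and 134 CPM in TUT47MO. The cnot7 mRNA stood in the same order, at 4.81, 8.15, 12.9 and 18.3 CPM, on 83, 91, 165 and 241 reads. The exact 95% Poisson intervals of ConMO (3.83 to 5.97 CPM) and TUT4MO (6.56 to 10.01 CPM) do not meet, but they cover counting error only. For cnot3a the levels were 118, 55.8, 60.2 and 37.1 CPM, so both single morpholinos stood between ConMO and TUT47MO. For cnot10 they were 36.3, 33.9, 61.8 and 63.9 CPM, with TUT4MO beside ConMO and TUT7MO beside TUT47MO. For cnot11 they were 31, 25.1, 19.2 and 16.9 CPM. Other members did not follow this order. For cnot8 the levels were 159, 239, 177 and 195 CPM, and for cnot3b 65.1, 93.3, 81.0 and 94.8 CPM. TUT4MO stood above TUT7MO for both. The cnot1 mRNA was at 212 CPM in ConMO and at 147, 157 and 151 CPM in the knockdowns, which lie close together.

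**Figure D4:**
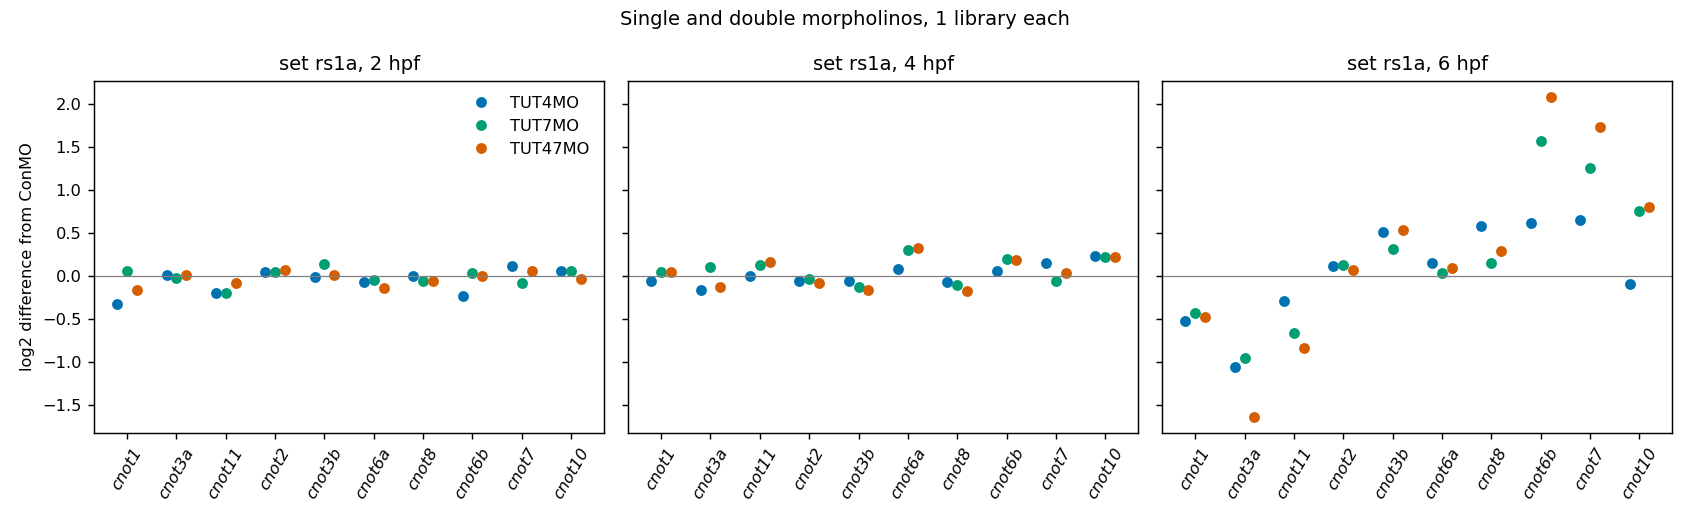
Difference of the TUT4MO, TUT7MO and TUT47MO library from the ConMO library of the same hour in set rs1a (y axis, log2(CPM + 1)) for each subunit mRNA (x axis), in 3 panels for 2, 4 and 6 hpf; each point is 1 library against 1 library. At 6 hpf cnot6b runs from 0.61 in TUT4MO to 1.57 in TUT7MO and 2.08 in TUT47MO, and at 2 and 4 hpf all points lie between −0.33 and 0.32.

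Stage markers differed between the same libraries, on lists chosen with earlier results of these data known. Of 9 maternal marker mRNAs (among them mos, slbp2 and zar1l) 9 were higher in late TUT47MO, and of 12 zygotic markers (among them ta, sox2 and her1) 11 were lower (limma), all but vox, named after its values were seen (−0.29 ± 0.20, SE, adjusted p = 0.228). Over all genes 34.5% were higher and 29.5% lower. Given how the lists were chosen, these counts are a description only. The maternal markers summed to 204 to 537 CPM in late ConMO and 1118 to 2117 CPM in late TUT47MO, against 3121 to 3309 CPM in early ConMO. The zygotic markers summed to 4725 to 8638 CPM in late ConMO and 1435 to 1723 CPM in late TUT47MO. At 6 hpf in rs1a the maternal sum was 229.9 CPM in ConMO, 418 CPM in TUT4MO, 796 CPM in TUT7MO and 1118 CPM in TUT47MO, the order of cnot6b and cnot7. Zygotic sums at that hour were 7416, 5419, 2093 and 1435 CPM. The part of developmental stage in the subunit differences was not tested. The TUT47MO library at 6 hpf in rs1a did not match the 4 hpf control of that set in marker sums. Maternal sums were 1118 against 2081 CPM and zygotic sums 1435 against 149.9 CPM. The shares of reads on the very abundant entries with clone names were 51.6 against 14.4%. The subunit levels that follow are therefore not compared at equal marker levels. Set beside the 4 hpf control of rs1a, the TUT47MO library at 6 hpf held 134 against 140.3 CPM of cnot6b, 18.3 against 36.5 CPM of cnot7, 63.9 against 76.1 CPM of cnot10, 37.1 against 49.7 CPM of cnot3a and 151 against 99.0 CPM of cnot1.

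Other genes of the deadenylation pathway also went both ways in late TUT47MO embryos. Of 5 other CCR4-NOT genes tested 1 was higher and 2 were lower. The ubiquitin ligase gene cnot4b was higher (1.35 ± 0.14, SE, limma adjusted p = 0.000112) while its paralog cnot4a (−0.40 ± 0.14, adjusted p = 0.0328) and rqcd1, the older name of CNOT9, the adaptor-binding subunit in human (−0.99 ± 0.18, adjusted p = 0.00164), were lower. The CCR4-type gene cnot6l did not pass (0.38 ± 0.16, adjusted p = 0.0713). Of 22 recruiting adaptors 9 were higher and 7 lower (median 0.33). They included tob2 (1.41 ± 0.11), the RNA-binding samd4a (1.55 ± 0.13) and the microRNA effector tnrc6c2 (1.55 ± 0.13) above ConMO and btg1 (−1.66 ± 0.13) below it. BTG and TOB proteins bind CAF1 nucleases. One of these adaptors, btg4, is also among the maternal markers.

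Of 8 genes listed as other deadenylases or their relatives, not all with an established deadenylase activity, 2 were higher and 2 lower. The poly(A)-specific ribonuclease parn (1.08 ± 0.18, SE, limma adjusted p = 0.00135) and the CCR4-family gene angel1 (0.82 ± 0.12, adjusted p = 0.000636) were higher. The nuclear deadenylase gene toe1 (−1.57 ± 0.15, adjusted p = 7.9e-05) and the nocturnin gene nocta (−1.68 ± 0.28, adjusted p = 0.00116) were lower. Of 12 poly(A)-binding and downstream decay genes 4 were higher and 5 lower, among them lsm1 (1.54 ± 0.12), dcp2 (−1.35 ± 0.12), pabpc1a (−1.31 ± 0.22) and the nuclear poly(A)-binding pabpn1 (−1.19 ± 0.10). These shares stand beside 34.5% and 29.5% of all genes.

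Across the 20 libraries the members formed no single pattern. Pearson correlations of log2(CPM + 1) between members, given as a description, ran from −0.77 for cnot6b with cnot11 to 0.96 for cnot6b with cnot7. The 2 nucleases cnot7 and cnot6b also ran with cnot10 (0.80 and 0.77), and against cnot3a (−0.73 and −0.76). The paralogs did not run together: r was 0.34 for cnot7 and cnot8, 0.18 for cnot3a and cnot3b, and −0.08 for cnot6a and cnot6b. The points share hour, set and scaling. Among 13858 other named genes, the profile most like that of cnot7 was ppp1r3da (r = 0.996), that of cnot6b map1sa (0.989), that of cnot10 cry4 (0.968) and that of cnot3a bbx (0.956). The nearest to cnot1 was kmt2d (0.969), to cnot11 wbp1 (0.974), to cnot6a fam222bb (0.969), to cnot2 emc2 (0.940) and to cnot3b cdc42bpb (0.937). The cnot8 mRNA had no close match, with map2k5 first at 0.828.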

How the data were processed

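Per the labels' protocols, total RNA was spiked with ERCC RNA (not used here, so no absolute amounts are given), depleted of rRNA and made into stranded paired-end libraries. STAR 2.5.3a, RSEM and the GRCz10 build are named, per the submitters' processing notes; the sources used here do not give their settings. Of 32660 entries in the deposited table, 555 (1.7%) hold neither a name nor values and were left out. Set rs1b (named rs2b in the series text) holds deposited estimated counts. For rs1a and rs2 the authors deposited a signal, in which each library's estimated counts carry a constant multiplier of unstated origin (0.75 to 1.27 in rs1a, 0.382 to 2.03 in rs2). It was read off the steps between low values and removed, after which 84.1 to 90.7% of values at or below 20 reads lay within 0.02 of a whole number.

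Library scaling used TMM factors (edgeR 4.0.16) set over all 20 libraries. Genes passed filterByExpr with a minimum count of 10. Tests were two-sided limma 3.58.1 with a mean-variance trend on log2(CPM + 1), Benjamini-Hochberg adjusted over all genes at 0.05, in R 4.3.3. The TUT47MO model took 12 libraries with 6 pairs of set and hour as a block, the course models 6 libraries with set as a block and the rs1a model 12 libraries with hour as a block. Pairing comes from the labels' set names; within each pair the deviations from group means correlated across genes (0.454 to 0.929), though hours also differ between sets. Between libraries of the same group, in the 4 groups of 3, chi-square per degree of freedom was 25.2 to 207. The labels give no embryo or clutch numbers, so the p-values reflect only how far these libraries spread, which may be technical. Alternatives were median-of-ratios and deposited scaling, TMM within a comparison (added after seeing the data), edgeR and DESeq2 1.42.0 on rounded reads, no filter, other pseudocounts, no block, and sets, hours or phases left out. The deposited scaling keeps rs1b as counts, with no correction for depth. Members and lists were chosen with earlier results of these data known. Named genes were all 10 members, the gene most like each, leaving out clone, predicted and one-to-many names, and at most 4 per pathway or marker list by late p; vox and btg4 were named outside this rule, after their values were seen. Neither coordinates nor sequences are given, since no GRCz10 genome was used.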

Additional observations from a re-analysis of the deposited data

Results flagged for a closer look

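The TUT47MO effect on 4 of the 10 subunit mRNAs differed between the late and the early pairs by the test of the difference itself. This stands beside 49.5% of all genes, so the number is not read as a trait of the complex. The late effect minus the early one was 1.85 (log2) for cnot7, 1.79 for cnot6b, 0.64 for cnot10 and −1.43 for cnot3a, each in the same direction in 3 of 3 late pairs. The cnot10 call was lost in 4 of 12 alternatives. One spread was fitted to all 6 pairs, and the late ones varied more. Stage markers differ between the same libraries, and their part in these differences was not tested.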

How the results depend on the processing

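All results of single members kept their direction where they were called. Of the recomputed values 1177 stayed on their side of the threshold, 22 lost a call and 21 gained one. Most of the 1177 belong to results not called in the main fit, many in comparisons that called 0 of all genes. They could hardly change, so the 1177 are no measure of stability. The 22 losses all fall on the fewer results that were called. In late TUT47MO embryos 2 members were called lower; the number was 1 with the deposited scaling, with no filter, with the 6 late libraries alone and without the pair as replicate block, 3 with median-of-ratios scaling, DESeq2 and TMM within the comparison (cnot11 added), and 1 to 3 without 1 set, while the number called higher was 3 to 5 without 1 set. Without the block, 2 members were higher. The calls over all genes moved too. In late embryos 7178 of 18008 genes were higher and 5952 lower without rs2, against 4277 and 3696 of 18350 without rs1a. Without the block they were 4033 and 3907 of 18075. For the late minus early difference, 2 members were lower with DESeq2, and without 1 set 2 to 5 were higher and 1 to 3 lower. Over all genes 5913 of 18008 were higher and 5275 lower without rs2, against 1610 and 1286 of 18350 without rs1a. In ConMO the 3 members that rose became 0 with the deposited scaling, where the genes that rose went from 6037 to 2596 of 17022. In the TUT47MO course the 1 member called higher became 0 with the deposited scaling, edgeR, no filter, a pseudocount of 5, no replicate block and TMM within the comparison, and 2 with DESeq2; 1 was lower with a pseudocount of 0.1 and with TMM within the comparison. Without 1 set, 0 to 2 were higher and 0 to 2 lower. Over all genes that course had 4098 higher and 4092 lower of 16871 without rs2, against 1495 and 836 of 16933 without rs1a. The cause of these moves was not tested. The rs1a comparisons called 0 members in each alternative, hour left out or no block included. Scaling moved the late median of all genes from 0.09 to −0.05 (median-of-ratios) or 0.32 (deposited), so small differences near those values have no fixed sign. With 44 to 165 reads in the late ConMO and single-morpholino libraries, cnot7 has the fewest reads of the members and the largest counting error.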

Other observations

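Some subunit mRNAs differed more between experimental sets than between morpholinos. The cnot6a mRNA stood at 200.4 to 246 CPM in the 4 rs1b libraries and at 330 to 533 CPM in the other 16. The cnot1 mRNA in late TUT47MO libraries was at 46.0 CPM in rs1b but at 151 CPM in rs1a and 242 CPM in rs2, and in rs1b it was at 43.1 CPM early, so that its difference between late and early TUT47MO libraries was 0.09 (log2) in rs1b against 1.29 in rs1a and 1.16 in rs2. In contrast cnot6b was at 141 to 146 CPM in the 3 early ConMO libraries of all sets. These values carry no test.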
